A study of Homo sapiens with 4 samples.

Results

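The VEGFA site 2 single guide RNA (sgRNA) left 75 genomic sites that matched the guide with exactly 4 mismatches, of 606 merged break loci in both VEGFA site 2 libraries (12.4%). For each locus, the listed 60-nt sequence was searched on both strands for the 20-nt protospacer beside an NGG protospacer-adjacent motif (PAM) that had the fewest mismatches, with its expected cut, 3 nt from the PAM, within 10 nt of the centre of the sequence. Positions listed within 30 nt of each other were merged first. The 75 sites are numbered here from site 1, the highest, to site 75, the lowest, by their mean share of the listed counts.

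The breaks were mapped by TTISS-seq in U2OS, a human osteosarcoma cell line, labelled as wild type. In this assay a short double-stranded DNA tag is joined into breaks in living cells, and the DNA beside the tag is amplified and sequenced. There were 2 libraries labelled as digested with the VEGFA site 2 sgRNA and 2 non-target libraries labelled as undigested. The labels name no guide for the non-target cells and do not say whether the replicates were separate cultures. The listed counts summed to 2855164 and 3182992 in VEGFA site 2 replicates 1 and 2, and to 29017 and 60660 in the non-target replicates, so the control lists were far smaller.

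Streptococcus pyogenes Cas9 first binds the PAM and then pairs the guide with the DNA strand opposite the PAM, starting at the PAM and moving away from it. Mismatches near the PAM (the seed) are therefore met first, and mismatches at the far end are met when most of the guide is already paired. A guide U opposite a G, or a guide G opposite a T, can form a wobble pair, which distorts the helix less than most other mismatches. The VEGFA site 2 guide is rich in cytosine and is known for cutting at many off-target sites.

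Positions were counted from 1 at the 5′ end of the guide to 20 beside the PAM, and positions 11 to 20 are called PAM-proximal. Sites are described by their mismatched positions, and all coordinates are those of the protospacer in hg38. A substitution is called a wobble substitution where it leaves the guide's U opposite a G or the guide's G opposite a T.

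The members that the values below turn on lay as follows. Site 1 (chr17:41888501-41888520, minus strand) is in intron 16 of ACLY, and site 3 (chr4:38535990-38536009, plus strand) is intergenic. Both had mismatches at positions 1, 2, 7 and 8. Site 7 (chr13:99894732-99894751, minus strand), within CLYBL but outside its canonical transcript, had them at positions 1, 2, 8 and 11. Site 9 (chr9:123375899-123375918, minus strand), in intron 12 of CRB2, had them at positions 1, 4, 8 and 19. Site 10 (chr1:50976517-50976536, minus strand), intergenic, had them at positions 7, 8, 11 and 16. Site 11 (chr10:114534494-114534513, minus strand), in intron 6 of ABLIM1, had them at positions 1, 2, 5 and 8. Site 12 (chr19:14032160-14032179, minus strand), in intron 1 of IL27RA, had them at positions 3, 5, 8 and 19.

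Among the lowest members that both VEGFA site 2 libraries listed, site 58 (chr17:32064238-32064257, plus strand, intergenic) had mismatches at positions 1, 16, 18 and 19, and site 59 (chr17:74660535-74660554, minus strand, intergenic) at positions 1, 2, 7 and 15. Site 60 (chr3:197353982-197354001, minus strand, intergenic) had them at positions 8, 9, 11 and 20. Site 61 (chr22:44739011-44739030, minus strand, intron 7 of PRR5-ARHGAP8) had them at positions 1, 6, 9 and 11. Site 64 (chr2:238153300-238153319, plus strand, exon 1 of the non-coding KLHL30-AS1) had them at positions 1, 8, 17 and 20.

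Of the 12 sites with the highest shares, 6 had no mismatch at positions 11 to 20, and the other 6 had 1 or 2. The 5 low sites had at least 1 PAM-proximal mismatch each. A wobble substitution at position 8 was present in 11 of the 12 highest sites, and in sites 60 and 64 of the low ones.

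The 75 sites together held 41.8% of the listed counts in VEGFA site 2 replicate 1 and 42.1% in replicate 2, a mean of 41.9% ± 0.245 (SD, n = 2). They held 1.19% and 1.35% in the non-target libraries, a mean of 1.27% ± 0.109 (SD, n = 2). The groups did not overlap, but 2 libraries against 2 allow no two-sided exact permutation p below 0.333. The sites were also chosen by their listing in a VEGFA site 2 library, and 46 of them were in no non-target list. A lower share in the non-target libraries was therefore partly fixed by this choice. In the VEGFA site 2 libraries, the sites with 4 mismatches carried more of the counts than any other number of mismatches. The 21 sites with 3 mismatches held 15.4% and 14.8%, and the 132 sites with 5 mismatches held 22.6% and 21.8%.

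The 75 sites were far from alike. Their mean share of the listed counts had a median of 0.148% and ranged from 0.00203% to 4.85%. Among the 62 sites that both libraries listed, the range was 456-fold. The quartiles lay at 0.0260% and 0.716%. In replicate 1 the counts of the 66 listed sites ran from 126 to 141944 with a median of 5242, and in replicate 2 those of the 71 listed sites ran from 129 to 150247 with a median of 5050. The 10 highest sites held 59.96% and 59.3% of all counts at the 75 sites. The sites on either side of the limit overlapped this range: the median was 0.199% with 3 mismatches (0.00189% to 3.92%) and 0.0229% with 5 mismatches (0.000770% to 3.71%).

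The on-target site, in VEGFA, had 52810 and 64011 counts, a share of 1.93% ± 0.114 (SD, n = 2). Exactly 6 sites with 4 mismatches had a higher mean share. Among them, site 5 (2.16% and 1.97%) and site 6 (1.94% and 2.17%) overlapped the on-target shares of 1.85% and 2.01%. Site 5 was below the on-target site in replicate 2. Site 1, in ACLY, the gene of an enzyme that makes cytosolic acetyl-CoA, had 141944 and 150247 counts (4.85% ± 0.178, SD, n = 2), which was 2.51 times the on-target share and the highest of all 606 loci. Both libraries of site 1 were above both on-target shares.

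Site 3 had 79087 and 88097 counts and a share of 2.77% in each replicate. This intergenic site was also above the on-target site in both libraries.

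Below the on-target site, site 7 had 50931 and 56360 counts and site 9 had 46347 and 50027. Site 10 had 40662 and 44657 counts, site 11 had 42949 and 39981, and site 12 had 35981 and 38186. Sites 10 and 11, and sites 11 and 12, overlapped in share between replicates, while sites 9 and 10 did not. Among the low members, site 58 had 871 and 610 counts and site 59 had 454 and 705. Site 60 had 294 and 658 counts, site 61 had 594 and 236, and site 64 had 451 and 174. Each of these 5 overlapped its neighbours in share, with replicates that differed by up to 2.89-fold.

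Both replicates ranked the sites alike. Over the 62 sites listed in both, Spearman's rho between the counts was 0.986 and Pearson's r of the log10 counts was 0.978. The shares differed between replicates by a median of 1.13-fold, and by more than 2-fold only at sites 56, 60, 61 and 64. The largest difference, 3.46-fold, was at site 56 (1158 and 373 counts).

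Of the other 13 sites, 4 were listed in replicate 1 only and 9 in replicate 2 only, with 126 to 844 counts. An unlisted position is entered here as 0, although what decides whether a position is listed is not given in the sources used here. The lists were not a simple cut on the count: 88 of the 944 listed positions of the VEGFA site 2 libraries had fewer counts than any of the 75 sites, while site 62 had 844 counts in replicate 2 and was not listed in replicate 1. Mean shares of these 13 sites are therefore lower estimates, and no ratio against an unlisted value is given as a fold.

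Against the non-target libraries, all loci of the 4 lists were fitted together with edgeR's quasi-likelihood test, each library scaled by its summed listed counts, and with Benjamini-Hochberg adjustment over 689 loci. Of all loci tested, 26.6% were called higher in the VEGFA site 2 libraries at an adjusted p under 0.05. The loci tested include those listed only in the non-target libraries. Of the 75 sites with 4 mismatches, 50 were called higher and 0 lower, with adjusted p between 0.0309 and 0.0497. The fitted change was positive at all 75. Members were chosen by their listing in a VEGFA site 2 library, and 46 of them were in no non-target list and entered as 0. A positive change was therefore fixed beforehand at these 46, and 28 of the 50 calls were among them. The call depended on the scaling and on both VEGFA site 2 libraries. TMM factors came to 4.50 and 4.53 for the VEGFA site 2 libraries and 0.214 and 0.229 for the non-target ones, with 63 loci listed in all 4 libraries. With these factors edgeR called 0 of the 75 (0% of all loci; 22 of the 75 at an unadjusted p under 0.05), while DESeq2 with its own size factors called 14 of 59 given an adjusted p (9.42% of all such loci). The fitted change was positive at 70 of 75 with TMM factors and at 57 of 75 with DESeq2, so its direction also depended on the scaling. Without either VEGFA site 2 library, edgeR called 0 (3 at an unadjusted p under 0.05 in each case).

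In the non-target libraries, 22 of the 75 sites were listed in replicate 1 and 29 in replicate 2, and the same 22 were in both. Site 1 had 45 and 127 counts there, which are shares of 0.155% and 0.209%. Over the 22 sites listed in all 4 libraries, the mean share was 16.9 to 38.6 times higher in the VEGFA site 2 libraries (median 23.9), and edgeR called all 22. None of the 7 sites listed in a single non-target library was called. No site ranked below 43 appeared in a non-target list.

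Listing in the controls followed the VEGFA site 2 share at most, but not all, of the high sites. Sites 3, 7, 11, 13 and 18 were in neither non-target list, although all of them ranked among the 20 highest. A non-target count was between 0.0100% and 0.0321% of the summed VEGFA site 2 count in replicate 1 (median 0.0207%), and between 0.0200% and 0.0873% in replicate 2 (median 0.0435%). The origin of the control counts was not tested.

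The number of PAM-proximal mismatches went with the share. The 7 sites with none had a median share of 2.06% (range 0.139% to 4.85%). The 44 sites with 1 had a median of 0.180% (0.00203% to 4.31%), and the 21 sites with 2 a median of 0.0329% (0.00221% to 1.41%). The 2 sites with 3 such mismatches, sites 58 and 69, had shares of 0.0248% and 0.00468%. The order of the medians was the same in each library: among listed sites the median count for 0, 1 and 2 PAM-proximal mismatches was 61540, 6643 and 1844 in replicate 1, and 69170, 6630 and 2034 in replicate 2.

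Over the 75 sites, Spearman's rho between the share and the number of PAM-proximal mismatches was -0.49 (-0.53 over the 66 sites of replicate 1 and -0.46 over the 71 of replicate 2). Counting from position 9 instead gave -0.57. The sites share the guide and both libraries and are not replicates, so these values, and all shares and medians over sites that follow, are descriptions without a test. The ranges within the classes were wide, and neighbouring classes from 0 to 3 mismatches overlapped.

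A single site had all 4 mismatches in the PAM-proximal part. Site 43 (chr8:143080470-143080489, intergenic) had 3126 and 3112 counts in the VEGFA site 2 libraries, a share of 0.104% ± 0.00828 (SD, n = 2), and 0 and 2 in the non-target libraries. It is also 1 of 3 members that pair with the guide at 1 mismatch if 1 base of the DNA or the guide is left out of the pairing (a bulge), here a DNA bulge. Another was site 36 (intron 2 of ERN1), also with a DNA bulge.

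Positions were used unevenly. Every one of the 75 sites had a mismatch at position 1, 2, 8 or 19. Position 8 was mismatched in 55 sites, position 2 in 43, position 1 in 39 and position 19 in 29, while position 12 was mismatched in 3, positions 10, 13, 15 and 18 in 4 each, and position 14 in none. The 12 sites mismatched at position 3 had a median share of 0.923% against 0.132% for the rest. The 8 sites mismatched at position 9 had a median of 0.0148% against 0.179%, and the 20 mismatched at position 16 had 0.0440% against 0.180%. The 6 sites mismatched at position 20, beside the PAM, reached at most 0.143%.

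These counts depend on which sequences the genome holds. The hg38 genome has 456 protospacers beside NGG with 4 mismatches to this guide, and the 75 members were those with a listed position within 10 nt of the expected cut (16.4%, Wilson 95% interval 13.3% to 20.1%). Of these genomic sites, 330 have a protospacer sequence that occurs once beside NGG, and 69 of them were listed (20.9%, interval 16.9% to 25.6%). The 2 most frequent protospacers, with 32 and 26 copies, were listed at no copy. Their weight is why both sets are given. Intervals cover counting error only.

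By PAM-proximal mismatches, 7 of 10 genomic sites with none were listed (70.0%, interval 39.7% to 89.2%), 44 of 154 with 1 (28.6%, 22% to 36.2%), 21 of 161 with 2 (13%, 8.69% to 19.1%), 2 of 109 with 3 (1.83%, 0.505% to 6.44%) and 1 of 22 with 4. Among protospacers that occur once, the same steps were 7 of 10, 41 of 86, 18 of 139, 2 of 85 and 1 of 10. The fraction of genomic sites listed and the median share of the listed sites were thus both lower with each PAM-proximal mismatch up to 3.

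Within the PAM-proximal part, mismatches at positions 14 and 15 were listed least often. None of 53 genomic sites with a mismatch at position 14 was listed, which allows a share of up to 5.66% by 3 counts of the total, or 6.76% by the Wilson limit. At position 15, 4 of 207 were listed (1.93%, interval 0.754% to 4.86%), and all 4 of these, sites 29, 47, 59 and 75, carried the same base change there. The other PAM-proximal positions ran from 6.25% at position 12 (3 of 48, interval 2.15% to 16.8%) and 9.52% at position 18 to 20.0% at position 19 (29 of 145, interval 14.3% to 27.2%), with 11.8% at position 13, 13.3% at position 20, 13.5% at position 17 and 14.7% at positions 11 and 16. The interval of position 12 overlapped those of all the others. Among once-occurring protospacers, 0 of 33 were listed for position 14, 4 of 117 for position 15 and 26 of 116 for position 19. Positions 14 and 15 are not separate observations, as 20 genomic sites were mismatched at both, none of them listed. The positions were not compared at an equal number of PAM-proximal mismatches.

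A PAM-distal position was no guarantee of listing. There were 3 genomic sites without any PAM-proximal mismatch that neither library listed, at chr17:37490065-37490084 (plus strand), chr19:4173638-4173657 (minus strand) and chr19:45781888-45781907 (minus strand). The second carries a wobble substitution at position 8, as most of the high members do. None was listed in a non-target library either.

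The wobble substitution was listed more often than the other changes at positions 8, 16 and 19, with intervals apart from both others at position 8 alone. At position 8, 46 of 83 genomic sites with the wobble substitution were listed (55.4%, interval 44.7% to 65.6%), against 6 of 30 (20.0%, 9.51% to 37.3%) and 3 of 28 (10.7%, 3.71% to 27.2%) for the other two base changes. At position 16, 15 of 51 sites with the wobble substitution were listed (29.4%, 18.7% to 43.0%), against 2 of 56 (3.57%, 0.985% to 12.1%) and 3 of 29 (10.3%, 3.58% to 26.4%), the last of which overlaps. At position 19, 24 of 95 with the wobble substitution were listed (25.3%, 17.6% to 34.8%), against 2 of 29 (6.90%, 1.91% to 22%) and 3 of 21 (14.3%, 4.98% to 34.6%), both overlapping.

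Positions 1, 2 and 11 were also used by many members. At position 11, where no substitution leaves a wobble pair, the 2 transversions were each found in 9 members, of 56 and 50 genomic sites, and the transition in 1 of 23. At position 1, the wobble substitution was in 9 of 28, and the other two in 22 of 63 and 8 of 30, which are 32.1%, 34.9% and 26.7%. The interval of the wobble substitution overlapped those of both transversions. At position 2, the 3 base changes were listed at 28.8%, 33.3% and 27.7%, with overlapping intervals.

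Over the whole protospacer, 94 of the 300 mismatches of the 75 sites were wobble pairs (31.3%), against 10.7% of the mismatches of the 381 unlisted genomic sites and 11.9% of those of the 261 unlisted sites that occur once. Genomic sites with 0, 1, 2 and 3 wobble pairs were listed at 11 of 245 (4.49%), 38 of 169 (22.5%), 22 of 38 (57.9%, interval 42.2% to 72.1%) and 4 of 4. With exactly 2 PAM-proximal mismatches, the same steps were 4 of 80, 7 of 64, 8 of 15 and 2 of 2. In this guide a wobble pair can arise only at positions 1, 8, 16 and 19. The number of wobble pairs therefore also counts mismatches at these positions. Genomic sites with any mismatch there were listed at 32.2%, 39.0%, 14.7% and 20.0%, against 16.4% of all genomic sites. Whether position or substitution type went with these steps was not tested.

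The share of the listed sites followed the number of wobble pairs less closely than the listing did. The median share for 0, 1, 2 and 3 wobble pairs was 0.0190%, 0.141%, 0.20% and 0.390%, with wide overlap, and rho was 0.22 (0.10 in replicate 1 and 0.27 in replicate 2). For transitions, the exchanges of C with T or A with G, rho was 0.16 over all 75 sites, 0.20 in replicate 2 and -0.02 in replicate 1, so it had no direction common to both libraries. Single substitutions gave no common order. At position 16 the 15 members with the wobble substitution had a median of 0.132%, while the 2 and the 3 with the other changes had shares of at most 0.0248% and 0.0459%. At position 8 the median was 0.180% for the 46 members with the wobble substitution, below the 0.270% of 6 with another change and above the 0.00861% of 3 with the third. At position 19 it was 0.172% for 24 members with the wobble substitution, below the 0.469% of 2 and above the 0.00479% of 3.

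At the guide's cytosines, which make up most of the protospacer, the order of the substitutions was the same in both parts. The unit here is the mismatch, and a site can hold more than 1 of a kind. In the PAM-proximal part, 4 of 152 genomic mismatches of a guide C opposite C were in members (2.63%, interval 1.03% to 6.57%). For C opposite T they were 10 of 194 (5.15%, 2.82% to 9.23%), and for C opposite A 14 of 135 (10.4%, 6.28% to 16.7%). At positions 1 to 10 the same pairs were at 5.02%, 15.4% and 24.6%. Over protospacers that occur once, they were at 3.06%, 7.75% and 13.2% in the PAM-proximal part, and at 11.8%, 25.5% and 26% at positions 1 to 10, where C opposite T and C opposite A were then nearly equal.

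Adjacent mismatches were counted by where they lay. Of the 75 sites, 28 had no adjacent mismatches, 33 had 1 adjacent pair, 13 had 2 and 1 had 3. The median share was 0.145%, 0.104% and 0.684% for 0, 1 and 2 adjacent pairs, and rho was 0.09 over all sites (0.22 in replicate 1 and 0.09 in replicate 2). Split by position, 43 members had an adjacent pair within positions 1 to 10 and a median share of 0.219%, and 7 had one within positions 11 to 20 and a median of 0.00625%, none above 0.104%.

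The genomic sites showed the same split. An adjacent pair within positions 1 to 10 went with listing at 43 of 89 sites (48.3%, interval 38.2% to 58.5%), and one within positions 11 to 20 at 7 of 98 (7.14%, 3.50% to 14%). The pair of positions 1 and 2 was mismatched at 24 members of 38 genomic sites, with a median share of 0.643%, and positions 7 and 8 at 13 of 19, with a median of 0.132%. Not every pair at positions 1 to 10 went with a high share: positions 8 and 9 were mismatched at 7 members of 14 genomic sites, with a median of 0.0155%, and neither positions 4 and 5 (4 genomic sites) nor 5 and 6 (3 genomic sites) were mismatched together in a member. All 5 genomic sites with positions 1, 2 and 3 mismatched were listed (at 0.0459% to 2.42%), as was the only one with positions 2, 3 and 4 mismatched.

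Adjacent pairs and position are not independent measures, as 4 mismatches packed at the far end leave a long matched run beside the PAM. Within the 44 sites with 1 PAM-proximal mismatch, rho with adjacent pairs was -0.08, and within the 21 with 2 it was -0.21. The listing of genomic sites differed from this. With 1 PAM-proximal mismatch, 15 of 105 sites without an adjacent pair were listed (14.3%), 22 of 38 with 1 (57.9%) and 6 of 10 with 2. Among protospacers that occur once, these were 14 of 39, 20 of 36 and 6 of 10. With 2 PAM-proximal mismatches they were 12 of 99, 6 of 56 and 3 of 6. The longest run of matched bases had a rho of 0.28 over all 75 sites. Sites with a run of 12 or more had a median share of 1.14% (14 sites), those with 9 to 11 had 0.179% (33 sites) and those with 5 to 8 had 0.0713% (28 sites). Within the 21 sites with 2 PAM-proximal mismatches, however, the rho for the run was -0.47.

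Members with the same protospacer showed how much counts differed at equal 20-base sequences. Sites 7 and 13 share one protospacer and differ in the first PAM base. Site 13 (chr22:50446357-50446376, plus strand) lies in the 3′ UTR of SBF1.

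Site 7 had 50931 and 56360 counts and site 13 had 31132 and 37474, a ratio of shares of 1.64 in replicate 1 and 1.5 in replicate 2. The groups of 2 values did not overlap, so the copies differed by more than the replicates did, but by little beside the range over all sites. A second pair of members with one protospacer had 722 and 257 counts in replicate 1, a ratio of 2.81, and was unlisted in replicate 2. Copies could also differ in listing, as a second genomic copy of the protospacer of site 46 was unlisted while site 46 had 2368 and 2815 counts. Copy number of these loci in U2OS, an aneuploid line, was not analysed here.

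Pairs of members 1 base apart in the protospacer differed by various amounts. Site 10 and site 41 (chr12:57087443-57087462, minus strand, within NEMP1 but outside its canonical transcript) differ only in the base at position 11.

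Site 10 had 40662 and 44657 counts, and site 41 had 3311 and 4710. The share of site 10 was 12.3 times higher in replicate 1 and 9.48 times in replicate 2.

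Site 22 (chrX:129906648-129906667, plus strand, intron 1 of UTP14A) and site 62 (chr19:27850787-27850806, minus strand, intron 1 of a long non-coding RNA gene) differ at position 1 and in the first base of the PAM.

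Site 22 had 17095 and 19825 counts, and site 62 had 0 and 844. In replicate 2 the share of site 22 was 23.5 times higher. The protospacer base that differs is the one farthest from the PAM, but the PAM differs too (CGG at site 22, TGG at site 62).

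Sites 25, on chromosome 8, and 31 (chr2:128486625-128486644, minus strand, intergenic) differ at position 8, where site 31 has the wobble substitution and site 25 another change, and in the first base of the PAM. Site 25 had 10653 and 13073 counts and site 31 had 5419 and 7893, so that site 25 was 1.97 and 1.66 times higher. Thus in these pairs 1 protospacer base went with ratios from 1.66 to 12.3 where both libraries gave one. Copies of one protospacer went with ratios from 1.5 to 2.81, the last from replicate 1 alone. The lowest ratio of each kind came from a pair that also differed in the first PAM base.

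Members that share a pair of substitutions showed how far shares spread at an equal number of mismatches. The wobble substitutions at positions 8 and 19 were both carried by 14 members, each with 2 further mismatches. They ran from site 9 (1.60%, with positions 1 and 4) and site 12 (1.23%, with positions 3 and 5) to site 55 (0.0324%, with positions 6 and 16) and site 62 (0.0133%, with positions 1 and 2). The range over the 13 listed in both libraries was 49.3-fold, site 62 being listed in replicate 2 alone (844 counts), and for 12 of the 14 position 19 was the sole PAM-proximal mismatch.

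Where the 2 further mismatches lay at positions 1 to 5, the 6 members listed in both libraries spread from 1.60% to 0.180% (8.89-fold). Site 14 (intron 5 of EXD3), with positions 1 and 3, had 27179 and 36092 counts. Site 31, with positions 1 and 2, had 5419 and 7893 counts. Site 34 (intron 13 of MUC4, a mucin gene), with positions 1 and 5, had 6142 and 4598. Of the members with another PAM-proximal mismatch beside position 19, site 46 (intron 1 of MAFG), with position 11, had 2368 and 2815 counts, and site 55, with position 16, had 684 and 1300.

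Pairs that differ by a single added mismatch were found in both directions. Of 5 members that extend a listed site with 3 mismatches, 4 were lower than it, with a median ratio of 2.87. Site 38 (intron 82 of LRP1, a lipoprotein receptor gene) adds a mismatch at position 4 to a site in an intron of NFIX that had 31767 and 36186 counts, and had 4432 and 4457, a ratio of 7.62. Site 45 adds one at position 19 to the same NFIX site and had 2671 and 2767 counts, a ratio of 12.5. The exception was site 51, whose values overlapped those of the site in a coding exon of EP400 that it extends (1240 and 1022 counts).

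Downward, 12 members had a listed neighbour with 1 further mismatch, in 25 pairs over 17 such sites, and the member was higher in 21 of the 25. In 14 of these pairs both libraries listed both sites, and the member was higher in 13 of the 14, with a median ratio of 3.03 and a range from 0.612 to 62.6. The pairs share members and are not independent. Where the added mismatch was at positions 1 to 10, the median ratio of such pairs was 2.67 (12 pairs), and the 2 pairs with it at positions 11 to 20 had ratios of 10.3 and 14.4. Adding the wobble substitution at position 19 to the protospacer of sites 7 and 13 left very few counts. The 2 sites with those 5 mismatches had 375 and 0 counts and 0 and 285 counts, against 50931 and 56360 at site 7. These 2 sites, each listed in 1 library, were in 6 of the 9 PAM-proximal pairs. In another of the 9, the member, site 62 (0 and 844 counts), was the lower one, against 5949 and 6559 counts.

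The same substitution added to site 11 left a site with 4507 and 3534 counts. The 4 pairs in which the site with 5 mismatches was higher involved site 62 in 2 pairs, site 31 in 1 and site 70 in 1. Sites 62 and 70 were each listed in 1 library. For site 31 (5419 and 7893 counts), the neighbour with a mismatch at position 3 added had 10687 and 10866 counts, above it in both libraries, while a second copy of that same longer protospacer had 5729 and 7312, within the spread.

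Pairing with a 1-nt bulge was a further feature that the mismatch count did not use. Of the 75 sites, 11 could pair with the guide with a 1-nt bulge and at most 2 mismatches, and their median share was 0.494%, against 0.135% for the other 64. Their shares ran from 0.0133% to 4.85%. Over all 75, rho between the share and the number of mismatches in the best bulge match was -0.35. Without these 11 sites, rho with PAM-proximal mismatches was -0.41. Whether a site was cut through the bulged or the gapless pairing cannot be told apart from these lists.

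Other properties were described in the same way. The first base of the PAM was A at 33 sites, C at 15, G at 15 and T at 12. TGG was listed at 12 of 167 genomic sites (7.19%, interval 4.16% to 12.1%) against 20.5% to 23.4% for the other 3. Over protospacers that occur once, TGG was listed at 12 of 110 (10.9%, 6.35% to 18.1%) against 25.5% to 26.1%. Its interval then overlapped those of CGG and GGG. The GC content of the 60 nt around the cut had a rho of 0.04 with the share, the longest single-base run one of 0.11 and the distance to the nearest start of a protein-coding gene one of -0.03. All 75 sites had a listed position within 1 nt of the expected cut.

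By GENCODE release 44 canonical transcripts, 39 sites lay in introns, 20 between genes and 3 in coding exons (KAT5 and TRAPPC14 among them). Another 3 lay in 5′ UTRs (CXXC5, INPP4B and ZNF318), 1 in a 3′ UTR and 1 in a non-coding exon. The other 8 lay within a gene but outside its canonical transcript. The median share was 0.170% for introns and 0.0301% between genes. Only 12 sites lay within 1000 bp of the start of a protein-coding gene, and their median of 0.137% was near the 0.165% of the others. In KAT5, the gene of a histone acetyltransferase, site 42 had 3861 and 3770 counts, and in TRAPPC14 site 66 had 0 and 441. Chromatin at these sites was not measured in these libraries.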

How the data were processed

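The study's authors deposited, for each TTISS-seq library, a list of break positions with a count and the local 60-nt sequence. These deposited counts were treated as raw read counts: they are whole and their sums differ between libraries. The aligner, duplicate removal and listing rule are not given in the sources used here, and PCR reads without molecular identifiers are not independent molecules. The build, hg38, is in the submitters' processing notes, and 1222 of 1223 listed sequences stood at their listed position in it. The guide is from the study's list. Members were matched as described above (Python 3.11.15, pandas 2.3.3), and the genome was scanned for NGG-flanked protospacers with pysam 0.24.0 and numba 0.67.0. A share is a site's percentage of the library's summed listed counts, with unlisted positions as 0. Groups were compared with edgeR 4.0.16 (glmQLFit and glmQLFTest, two-sided, R 4.3.3, all loci), with TMM, DESeq2 1.42.0, a count filter, the replicate block, left-out libraries and 5-nt merging as alternatives. Spearman's rho used scipy 1.17.1. The matching was tested on protospacers implanted near the centre of random sequences, and edgeR on simulated libraries of equal size with balanced changes. These simulations did not copy the unequal sums or the unlisted positions of the real lists. Sites were chosen for description as the 12 highest, the 6 lowest among members listed in both libraries, members with identical protospacers and members 1 base apart. Positions and substitutions carried by fewer than 5 members that are given with values were chosen after the values were seen. The members and these lists were chosen with earlier results of these data known. Sequences and some of these sites are not reported here.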

Additional observations from a re-analysis of the deposited data

How the results depend on the processing

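The 75 sites and their 41.9% of counts were the same with merging at 5 nt and with the expected cut within 3 nt, and were 62 sites and 41.9% when both libraries had to list a site. Without 1 VEGFA site 2 replicate the number was 66 or 71 and the share 41.8% or 42.1%. The rho with PAM-proximal mismatches kept its sign, at -0.53 to -0.46 without a replicate, -0.57 for positions 9 to 20 and -0.41 without the members with a bulge match. The rho with transitions was -0.0176 to 0.204 without a replicate. The rho with adjacent pairs was 0.22 for sites listed in both libraries, 0.0939 to 0.221 without a replicate, -0.0230 without the members with a bulge match, and 0.28 for the longest matched run. The genomic sites were listed at 16.4%, at 13.6% if both libraries had to list a site, at 14.5% to 15.6% without a replicate and at 20.9% for protospacers that occur once.

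The 50 calls by edgeR became 0 with TMM factors and 14 with DESeq2, 58 of 62 tested with a filter of at least 10 counts in at least 2 libraries (84.3% of all loci left were called) and 48 with merging at 5 nt (23.6%). Without a library, the calls were 0 if VEGFA site 2 replicate 1 or VEGFA site 2 replicate 2 was left out (3 at an unadjusted p under 0.05 in each case), and 59 or 58 without non-target replicate 1 or 2 (38.3% and 37.2% of all loci), so these counts are not comparable with 50 at 26.6%; a lone library is then assumed to vary like the other group. With the replicate block, edgeR called 0 of the 75 (27 at an unadjusted p under 0.05). The libraries share only a number: the deviations of same-numbered libraries correlated at 0.133 over 63 loci. The causes of these changes were not tested. The deposited lists limit all values, since the sequencing depth is unknown and an unlisted position is not a measured 0.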
